A study of Mus musculus with 12 samples.

Results

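Gene expression was compared between 4T1 cells taken from the lungs of old mice and of young mice. The comparison holds 6 of the 12 libraries of the series, 3 from old and 3 from young animals, and these were chosen by their labels alone, with no measured value. 4T1 is a mouse mammary carcinoma line that was established from a BALB/c mouse and seeds the lung when it reaches the blood. Here the line carried mNeonGreen, a green fluorescent protein. Each Balb/c mouse had received 5000 of these cells through the tail vein, and after 4 weeks the 4T1 cells were recovered from lung tissue on a cell sorter, with 100000 cells collected for each library. The labels call the mice old or young and give no age, and they do not say whether each library is a separate mouse, so p-values measure the spread between these libraries, which may be technical. The other 6 libraries are cultured 4T1 cells, of which 3 had spent 72 h without serum in RPMI-1640 holding 25% IFE, an interstitial fluid extract made from lungs of young mice with 4T1 metastases, and 3 in the same mixture made from old mice. They are used only as a reference for cells grown without a host and in a closing test of the difference. Their titles also carry shNT, a term that no protocol text defines.

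Carcinoma cells that arrive in the lung attach to a basement membrane, a sheet of laminins and type IV collagen, through integrins, and they meet alveolar macrophages, recruited monocytes and lymphocytes. Interferons released by immune cells act through receptors and transcription factors that raise antiviral proteins and the class I molecules that display peptides to T cells. Class II molecules are mainly made by macrophages, dendritic cells and B cells, although interferon gamma can raise them in carcinoma cells through the activator encoded by Ciita. Cells that keep an epithelial character hold on to their neighbours with claudins, cadherins and desmosomes, and they can lose these contacts as they spread.

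The libraries held 11679046 to 15053144 counts, of which 97.5% to 97.6% fell on protein-coding genes. Every level below is in CPM, counts scaled to the same library total after adjustment for library composition. The labelled cell type was visible in the markers. Krt8 stood at 1612, 1652 and 1572 CPM in the young libraries and 1825, 1848 and 1814 CPM in the old, and Krt18, its keratin partner, at 834, 888 and 852 and 1102, 1156 and 1117 CPM. Cdh1, the epithelial cadherin, stood at 204, 200.4 and 191 and 239, 230.3 and 227 CPM, and the mesenchymal filament gene Vim at 4777, 4753 and 4690.4 and 4814, 4858 and 4817 CPM. Among the receptors used to class breast cancers, the oestrogen receptor gene Esr1 had means of 16.9 and 14.5 CPM and Erbb2, which encodes HER2, of 57.6 and 58.9 CPM in young and old libraries, with no call for either, while Pgr was not analysed here. Ptprc, which encodes CD45 and marks blood cells, was present at 62.4, 54.1 and 54.3 CPM in young and 9.48, 8.21 and 6.92 CPM in old libraries and was not listed in the table of the cultured cells, so the sorted material held RNA of this leukocyte gene.

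Old and young libraries differed in many genes, mostly by a small amount. Of 14096 genes tested with edgeR's quasi-likelihood test, 40% were called at an adjusted p under 0.05 (Benjamini-Hochberg), 19.6% higher and 20.4% lower in old. An unadjusted p under 0.05 was reached by 46.7%. The median log2 fold change of old over young was 0.27 among the genes called higher and -0.42 among those called lower. Large changes leaned toward lower expression. A change of at least 1.5-fold was called for 448 genes (3.18%) in the higher direction and for 1149 (8.15%) in the lower. A change of at least 2-fold was called for 187 genes (1.33%) in the higher direction and for 782 genes (5.55%) in the lower, and one of at least 4-fold for 15 (0.106%) and 413 (2.93%) genes. The groups did not overlap for 47.7% of genes tested.

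**Figure D1:**
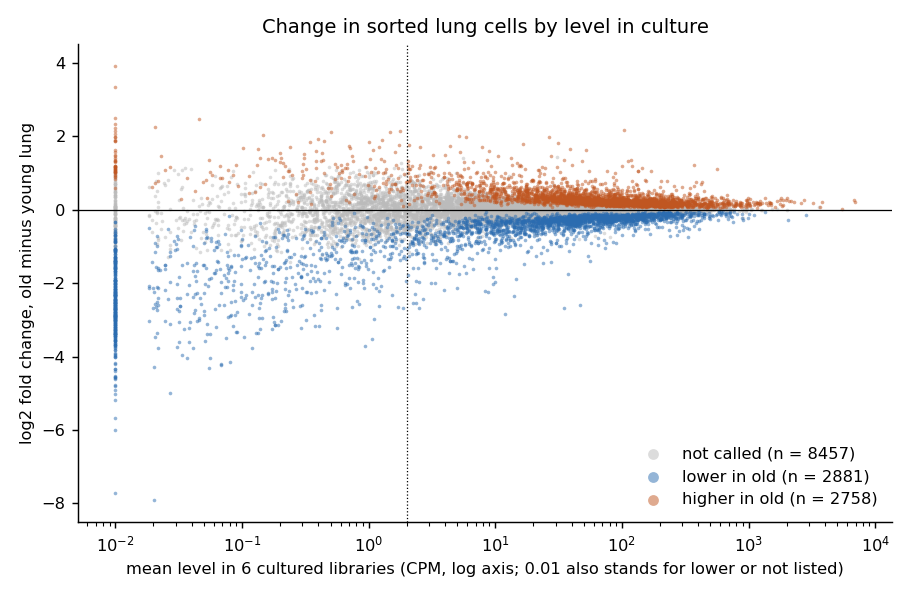
The log2 fold change of old over young lung libraries is plotted against the mean level of each gene in the 6 cultured libraries (CPM, log axis), 1 point per gene, with called genes in colour; genes under 0.01 CPM or not listed in culture are drawn at 0.01 and the dotted line marks 2 CPM. The 2881 lower calls reach far down among genes that are barely detected in culture, while among genes at 200 CPM or more 0 fell and 2 rose by 2-fold or more.

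The size of the falls followed how far cultured 4T1 cells expressed a gene. The tables for lung and culture were made separately, so their levels are set side by side only as a description. Among 818 genes that were absent from the culture table or under 0.1 CPM there, 61.7% were lower and 8.31% higher in old lungs, with a median log2 fold change of -1.42. In the group of 1123 genes that reached 200 CPM in the cultured cells, 18.1% were lower and 44.5% higher, with a median of 0.061. Rises were thus called more often among genes at a high level in culture. The list counts below stand beside 19.6% higher and 20.4% lower over all genes tested. Of the 782 genes that fell 2-fold or more, 691 were under 2 CPM or not listed in culture, and so were 399 of the 413 that fell 4-fold or more. Of the 187 that rose 2-fold or more, 112 were.

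Markers of macrophages and monocytes fell as a whole list. All 21 members tested fell, with a median log2 fold change of -3.15, and their summed level was 1606 to 1656 CPM in the young and 230.1 to 244.3 CPM in the old libraries, a 6.85-fold difference. In the cultured cells the same sum was 8.42 to 12.7 CPM. Csf1r, the receptor for macrophage colony stimulating factor, had means of 127 CPM in young and 13.5 CPM in old libraries (log2 fold change -3.23 ± 0.07, adjusted p = 2.55e-50). Lyz2, the lysozyme of myeloid cells, had 406, 418 and 405 and 78.0, 76.9 and 62.2 CPM (log2 fold change -2.50 ± 0.07, adjusted p = 2.05e-08), and Ccr2, a chemokine receptor of monocytes, had 30.9, 30.1 and 30.5 and 2.33, 2.37 and 2.93 CPM (log2 fold change -3.58 ± 0.14, adjusted p = 1.03e-41). For each of these genes every old library lay far below every young one. For Lyz2, the absence of overlap was a condition of being named among the largest falls. In bulk libraries, fewer cells of a type and less RNA per cell cannot be told apart. The part of these cells in the results that follow was not tested, and for most gene groups the members at 2 CPM or more in culture are also counted separately. That cut does not separate RNA of 4T1 cells from RNA of host cells. Cd74, for example, passed it with 46.3 CPM in culture beside a mean of 1364 CPM in young lung libraries.

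Markers of other lung cells differed in both directions. Summed T and NK cell markers were 11.8 to 12.5 CPM in young and 5.34 to 8.71 CPM in old libraries, with 1 of 4 tested members called, Il7r, the interleukin 7 receptor, which fell from a mean of 5.44 to 0.747 CPM (log2 fold change -2.87 ± 0.31, adjusted p = 1.03e-13). Of 14 neutrophil markers tested, 5 fell and 1 rose, Mmp9, which was at 144 CPM in culture. The list summed to 613.6 to 633.2 CPM in old and 495.1 to 522.3 CPM in young libraries. S100a8 and S100a9, the calprotectin genes that mark mature neutrophils, had means of 13.4 against 14.1 CPM and 20.3 against 21.5 CPM with no call. Alveolar and airway markers were higher in old libraries, at a sum of 238.5 to 246.5 against 169.4 to 172.9 CPM, with 9 of 16 called higher and 2 lower, or 1 lower without old replicate 1 or 3 or young replicate 1 or 3. Sftpb, part of the surfactant that lines the alveoli, rose from 4.38, 5.44 and 4.63 to 14.9, 15.6 and 13.8 CPM. Fibroblast and pericyte markers were also higher, at 441.5 to 451.5 against 346.0 to 370.1 CPM, with 7 of 11 called higher and 2 lower. Endothelial markers summed to 291.0 to 301.2 CPM in old and 329.8 to 336.0 CPM in young libraries, with 4 members called in each direction among 15. Sele, an adhesion molecule of inflamed endothelium, rose from 2.34, 2.11 and 2.38 to 9.91, 7.44 and 7.98 CPM, whereas Plvap, a diaphragm protein of lung capillaries, fell from 6.72, 5.78 and 6.09 to 4.57, 3.34 and 3.17 CPM. Platelet and erythroid markers summed to 6.02 to 9.04 CPM in old and 13.8 to 18.1 CPM in young libraries, with 1 of 3 tested members called, Pf4, a platelet factor, which fell from a mean of 6.27 to 0.300 CPM (log2 fold change -4.29 ± 0.36, adjusted p = 2.15e-18). Without old replicate 2 or young replicate 1, 2 of these members fell. Of 7 B and plasma cell markers tested, 5 fell and 1 rose, Sdc1, which was at 139.5 CPM in culture. The list summed to 526.5 to 535.3 CPM in old and 478.6 to 498.6 CPM in young libraries. Jchain, the joining chain of antibodies, fell from a mean of 1.72 to 0.165 CPM (log2 fold change -3.38). Of 5 dendritic cell markers 1 rose and 2 fell, but 2 rose without old replicate 2 and 1 fell without young replicate 3. The markers of 4T1 cells themselves summed to 3592 to 3735 CPM in young and 4832 to 4922 CPM in old libraries, with 10 of 11 members higher and Krt19 lower.

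**Figure D2:**
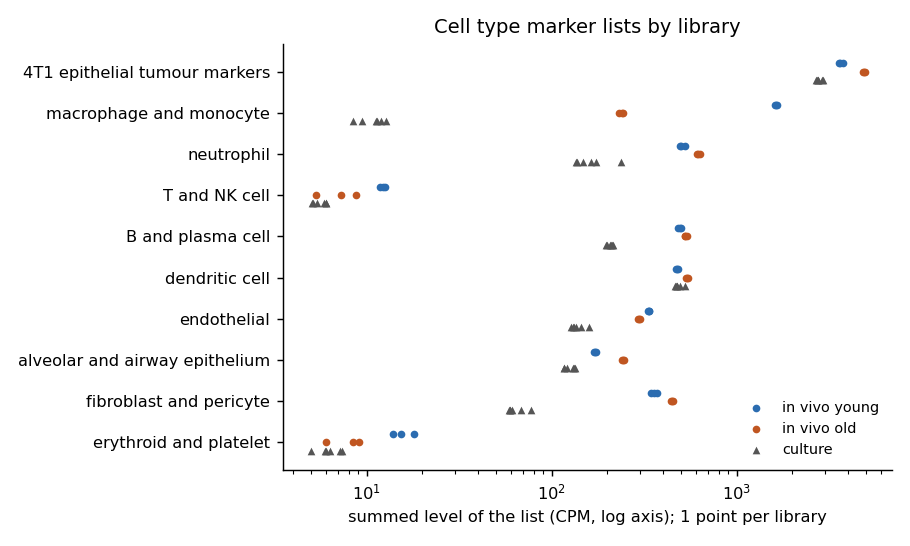
Each point is the summed level of a marker list in 1 library (CPM, log axis), for young lung, old lung and cultured libraries. The macrophage and monocyte list separates the groups most widely, at 1606 to 1656 CPM in young, 230.1 to 244.3 CPM in old and 8.42 to 12.7 CPM in cultured libraries.

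Among abundant genes that fell most, several are known from macrophages. Apoe, a lipid carrier made in quantity by macrophages, had 480.5, 492 and 492 CPM in young and 70.6, 68.2 and 66.8 CPM in old libraries (log2 fold change -2.83 ± 0.034, adjusted p = 2.78e-86). Trf, the iron carrier transferrin, went from means of 167 to 24.6 CPM (log2 fold change -2.76 ± 0.054, adjusted p = 4.33e-67), and Tgfbi, an adhesive matrix protein, from 158, 159 and 156 to 31.6, 31.1 and 32.3 CPM. Old and young libraries did not overlap for any of these, which was a condition of being named among the largest falls. In culture, Apoe stood at 11.9 CPM and Trf and Tgfbi at 0.0316 and 0.144 CPM. Lcp1, an actin-bundling protein of leukocytes that carcinoma lines can also make, was at 37.7 CPM in culture and fell from 143, 143 and 141 to 44.6, 43.9 and 38.7 CPM (log2 fold change -1.75 ± 0.051, adjusted p = 1.81e-52). Cultured cells also expressed Stab1 and Tgm2. Stab1, a scavenger receptor best known from macrophages and sinusoidal endothelium, was at 54.1 CPM in culture and fell from 159.9, 157 and 155 to 62.0, 72.1 and 63.0 CPM. Tgm2, a transglutaminase that crosslinks matrix proteins, was at 85.1 CPM in culture and fell from 444, 434 and 446 to 245, 241 and 234 CPM.

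Genes of the interferon response were lower in the libraries from old lungs. All 32 type I interferon response genes tested fell, with a median log2 fold change of -0.69, and all 28 genes of class I presentation and the interferon gamma response fell, with a median of -0.80, against a median of 0.0019 over all genes tested. With 1 library left out, 28 to 32 of the type I genes and all 28 of the class I and interferon gamma genes fell. In each list, 24 members were at 2 CPM or more in culture, and their medians were -0.62 and -0.66. Stat2, a transcription factor that carries the signal of type I interferon, had 111, 114 and 114 CPM in young and 49.3, 57.6 and 58.4 CPM in old libraries (log2 fold change -1.03 ± 0.051, adjusted p = 9.52e-34), and Irf9, a DNA-binding subunit of the same complex, went from 63.6, 68.0 and 74.5 to 41.5, 50.8 and 41.4 CPM. The groups did not overlap for Stat2 or Irf9.

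Promoters of these genes were searched for the sequence that this complex is known to bind. Promoter windows of 250 bases before to 50 bases after the gene start were taken from RefSeq on GRCm38.p6 and searched on both strands for GAAA, any 2 bases and GAAA again, a core of the interferon-stimulated response element. A match was found for 12 of 22 type I interferon genes that had a window (54.5%) and for 12 of 24 class I and interferon gamma genes (50%), against 1079 of 27025 genes in all (3.99%). Both lists were made of known interferon targets, so these shares describe the lists and not the change between old and young. The window of Psmb9, a list member that also fell, held 0 matches. The windows of Bst2, Igtp and Stat2 are printed 5′ to 3′ on the gene's strand, with the match in capitals, because they are list members described here that hold the motif. Bst2, which encodes tetherin, has a pair of overlapping matches at chr8:71537423-71537722 on the minus strand. Igtp, an interferon-induced GTPase, has its match at chr11:58199306-58199605 on the plus strand, and Stat2 at chr10:128270248-128270547 on the plus strand, where the capitals are the reverse complement.
Bst2: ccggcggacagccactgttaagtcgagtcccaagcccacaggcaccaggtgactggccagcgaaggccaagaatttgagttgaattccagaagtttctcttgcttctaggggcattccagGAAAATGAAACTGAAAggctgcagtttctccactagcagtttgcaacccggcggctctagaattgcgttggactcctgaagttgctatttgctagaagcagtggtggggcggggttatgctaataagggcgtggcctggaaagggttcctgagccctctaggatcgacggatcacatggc
Igtp: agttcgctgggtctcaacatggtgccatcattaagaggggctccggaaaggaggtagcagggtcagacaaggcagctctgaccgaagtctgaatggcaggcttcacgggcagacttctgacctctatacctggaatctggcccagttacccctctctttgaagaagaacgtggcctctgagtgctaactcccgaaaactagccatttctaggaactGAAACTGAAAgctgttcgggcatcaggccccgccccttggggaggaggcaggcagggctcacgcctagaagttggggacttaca
Stat2: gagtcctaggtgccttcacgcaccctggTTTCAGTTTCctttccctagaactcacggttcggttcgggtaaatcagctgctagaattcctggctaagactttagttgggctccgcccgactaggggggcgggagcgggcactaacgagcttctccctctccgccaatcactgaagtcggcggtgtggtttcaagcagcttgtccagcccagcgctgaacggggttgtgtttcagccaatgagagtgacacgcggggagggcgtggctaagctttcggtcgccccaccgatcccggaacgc

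A match is a description of the letters and not of binding. Igtp itself had 162, 159 and 165 CPM in young and 62.6, 59.0 and 56.7 CPM in old libraries (log2 fold change -1.45 ± 0.046, adjusted p = 2.56e-49), and Bst2 had 160.0, 166 and 169 and 86.9, 91.6 and 87.5 CPM. Zbp1, a sensor of unusual nucleic acids, went from 57.5, 58.6 and 58.6 to 21.3, 21.9 and 25.5 CPM, Oas2, which makes the activator of an antiviral nuclease, from 16.5, 17.4 and 19.5 to 4.48, 6.54 and 7.65 CPM, and Irf7, an amplifier of interferon production, from 46.9, 46.4 and 45.9 to 26.6, 24.7 and 25.5 CPM. The smallest change was that of Isg20, an exonuclease, which stood at 31.3, 34.4 and 33.5 and 30.9, 29.2 and 26.5 CPM and lost its call in several alternatives, among them DESeq2 and the fits without young replicate 2 or 3 or without old replicate 2 or 3.

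RNA for several steps of class I peptide display was lower. The display itself was not measured. The heavy chains H2-K1 and H2-D1 went from 449.6, 477 and 471 to 314, 298 and 305 CPM and from 1621, 1659.8 and 1650.5 to 1150.3, 1153 and 1192 CPM, with log2 fold changes of -0.61 and -0.50. Near-identical copies in the class I cluster can share reads, so single heavy chain counts are uncertain. Psmb9, a subunit of the immunoproteasome that cuts peptides for class I, fell from 109.6, 116 and 109 to 50.6, 45.2 and 41.7 CPM (log2 fold change -1.28 ± 0.054, adjusted p = 7.87e-39), and Nlrc5, the activator of class I genes, from 221, 217 and 223 to 113, 119 and 122 CPM. Irf8, a transcription factor of myeloid cells that interferon gamma also raises in other cells, fell from 101, 99.5 and 95.2 to 35.1, 36.2 and 36.1 CPM and was at 4.88 CPM in culture. The 7 class II genes tested all fell, with a median of -2.71, and 2 of them, Cd74 and H2-DMa, were above 2 CPM in culture. Ciita, the class II activator, went from 54.9, 51.1 and 53.4 to 9.22, 10.4 and 10.7 CPM and was at 0.183 CPM in culture.

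**Figure D3:**
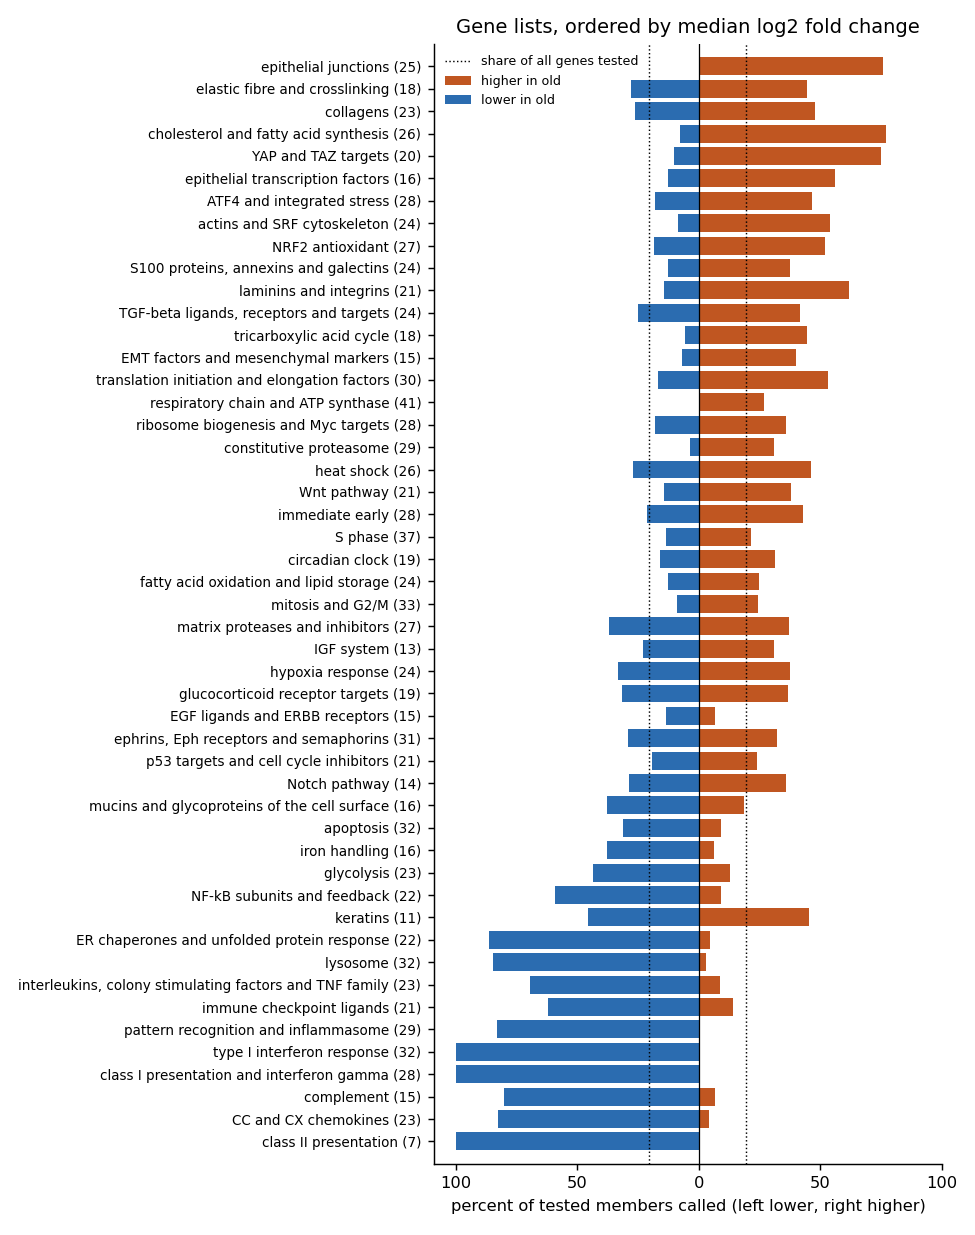
Bars give the percent of tested members of each of 49 gene lists that were called lower (left) or higher (right) in old lung libraries, with the number tested in brackets and the lists ordered by median log2 fold change; dotted lines mark the shares over all genes tested, 20.4% and 19.6%. Class II, complement, chemokine and interferon lists lie at the lower end, and epithelial junctions, with 19 of 25 members higher, at the upper end.

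Genes of ligands that restrain or engage immune cells, listed together with enzymes such as Arg1 and Nos2, were mostly lower. Of 21 tested, 13 fell and 3 rose, and among the 12 at 2 CPM or more in culture, 5 fell and 3 rose. Cd274, which encodes the checkpoint ligand PD-L1 and responds to interferon gamma, had 57.3, 51.8 and 55.8 CPM in young and 20.5, 22.1 and 19.6 CPM in old libraries (log2 fold change -1.40 ± 0.078, adjusted p = 1.79e-30). Arg1, an arginase of suppressive myeloid cells, went from 143, 149 and 150.4 to 21.1, 19.9 and 17.3 CPM and was at 0.177 CPM in culture, and Nos2, the inducible nitric oxide synthase, from 169, 178 and 171 to 75.2, 74.2 and 76.3 CPM. All old libraries were below all young ones for these genes. Nectin2, an adhesion molecule read by receptors of T and NK cells, rose from 37.8, 35.7 and 38.0 to 42.8, 48.8 and 51.4 CPM. Cd47, the signal against engulfment, had means of 285 and 276 CPM (adjusted p = 0.21) and Pvr, a ligand of the receptor TIGIT, had 151 and 149 CPM (adjusted p = 0.745).

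Pattern recognition genes fell in 24 of 29 cases and rose in none, with a median log2 fold change of -0.64, and in 12 of the 17 members at 2 CPM or more in culture. Nlrp3, an inflammasome sensor, had 72.5, 69.9 and 68.7 CPM in young and 7.24, 8.42 and 6.92 CPM in old libraries (log2 fold change -3.21 ± 0.089, adjusted p = 4.57e-54) and was at 0.564 CPM in culture. Sting1, the adaptor of the cytosolic DNA pathway, went from 57.1, 61.8 and 63.9 to 41.8, 44.8 and 40.9 CPM, whereas Cgas, the sensor upstream of it, had 19.9, 21.0 and 21.4 and 20.8, 17.3 and 19.7 CPM with no call. Gsdmd, which forms pores in dying cells, went from 60.0, 52.9 and 60.2 to 38.5, 34.4 and 40.5 CPM.

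Secreted inflammatory signals did not all move the same way. Of 23 chemokines tested, 19 fell and 1 rose, with a median log2 fold change of -1.53. Among the 9 at 2 CPM or more in culture, 6 fell and 1 rose, with a median of -0.43. Of 23 interleukins, colony stimulating factors and TNF family members, 16 fell and 2 rose, with a median of -0.47. Among the 8 of these at 2 CPM or more in culture, 6 fell and 1 rose, with a median of -0.14. Ccl6 and Ccl9, macrophage chemokines of the mouse, went from 103, 108 and 111 to 15.8, 16.9 and 17.9 CPM and from 53.5, 51.8 and 50.4 to 4.91, 4.66 and 5.29 CPM, and were at 0.218 and 0.0534 CPM in culture. Cxcl2, which attracts neutrophils, went from 156, 148 and 158 to 61.2, 63.5 and 58.8 CPM. Cxcl1, also a neutrophil attractant, was instead the 1 chemokine that rose, from 868, 877 and 869.5 to 993, 1071 and 1018 CPM (log2 fold change 0.24 ± 0.021, adjusted p = 3.36e-17). Among growth factors of myeloid cells, Csf3 rose from 382, 382 and 370.1 to 436, 432 and 423 CPM and Csf2 from 18.5, 21.6 and 18.4 to 29.3, 33.0 and 32.8 CPM. Lif, a cytokine of the interleukin 6 family, fell from 1117, 1121 and 1111 to 1029, 1051 and 1032 CPM. Ccl2, the main attractant of monocytes, stood at 100.3, 95.9 and 97.6 and 100.2, 100.2 and 92.5 CPM with no call (adjusted p = 0.958). Il1rn, the interleukin 1 receptor antagonist, went from 77.7, 75.4 and 76.9 to 9.83, 9.60 and 9.44 CPM, Il33, an alarmin, from 28.6, 29.6 and 30.8 to 11.7, 8.56 and 8.79 CPM, and Osm, a macrophage cytokine, from 28.2, 28.2 and 32.6 to 4.91, 5.08 and 3.66 CPM.

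Complement genes fell in 12 of 15 cases and rose in 1, and among the 5 members at 2 CPM or more in culture 3 fell and 1 rose. C4b, a component of the classical pathway, had 193, 207 and 192 CPM in young and 58.6, 48.3 and 53.5 CPM in old libraries (log2 fold change -1.89 ± 0.048, adjusted p = 2.95e-46) and was at 0.0551 CPM in culture. Clu, a secreted chaperone that restrains the terminal complement complex, was the member that rose, from 363, 339.7 and 337 to 615, 627 and 608 CPM (log2 fold change 0.83 ± 0.026, adjusted p = 3.86e-50). Every old library was above every young one for Clu. Every old library was below every young one for C4b, a condition of being named among the largest falls.

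Lysosomal genes fell in 27 of 32 cases and rose in 1, with a median log2 fold change of -0.37, and 24 of the 28 members at 2 CPM or more in culture fell. Ctss, a cathepsin of antigen presenting cells that was not listed in culture, had 197, 213 and 202 CPM in young and 19.5, 20.2 and 19.0 CPM in old libraries (log2 fold change -3.38 ± 0.054, adjusted p = 8.60e-75). Cathepsins that cultured 4T1 cells express also fell. Ctsd went from 456, 467 and 463 to 383, 388 and 373 CPM and Ctsl from 1258, 1302 and 1255 to 1138, 1155 and 1147 CPM, with log2 fold changes of -0.27 and -0.15. Psap, the precursor of the saposins that help to break down sphingolipids, went from 1513, 1566 and 1499 to 897, 914 and 916 CPM, and Lamp1, a membrane protein of the lysosome, from 559, 554 and 557 to 465, 469 and 450.4 CPM. Ctsk, the cathepsin of bone-resorbing cells and fibroblasts, was the member that rose, from 2.57, 1.56 and 1.85 to 4.05, 6.54 and 5.05 CPM. Tfeb, a master regulator of lysosomal genes, had 9.89, 9.59 and 10.7 and 8.62, 8.07 and 8.30 CPM and was not called.

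RNA for the machinery that folds secreted proteins was lower. Of 22 endoplasmic reticulum chaperones and genes of the unfolded protein response, 19 fell and 1 rose, with a median log2 fold change of -0.31, and all 22 were at 2 CPM or more in culture. Without young replicate 2, 0 of them rose. Sdf2l1, a partner of the chaperone BiP, had 22.8, 25.2 and 21.6 CPM in young and 10.0, 8.35 and 8.22 CPM in old libraries (log2 fold change -1.40 ± 0.12, adjusted p = 9.13e-19). Hyou1, a large chaperone, went from 292, 274 and 285 to 196, 200.5 and 189 CPM, Dnajc3, a co-chaperone of BiP, from 197, 193 and 187 to 131, 123 and 126 CPM, and Pdia4, an enzyme that forms disulphide bonds, from 181, 183 and 178 to 126, 134 and 142 CPM. Xbp1, the transcription factor of this response that is also high in plasma cells, fell from 142, 144 and 143 to 102, 99.1 and 96.0 CPM. Hspa5, which encodes BiP itself and was among the 12 most abundant genes, fell by 0.13 on the log2 scale, from 2682, 2681 and 2698 to 2456, 2478 and 2406 CPM. Atf6, a sensor of the same pathway, was the member that rose, from 139, 129 and 135 to 151, 148 and 143 CPM, a call that was lost without young replicate 2.

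Cytosolic chaperones went in both directions, with 12 of 26 heat shock genes higher and 7 lower, and 11 and 6 of the 24 at 2 CPM or more in culture. Hsp90ab1, the constitutive HSP90, rose from 3645, 3682 and 3649 to 4609, 4575 and 4578 CPM (log2 fold change 0.33 ± 0.015, adjusted p = 4.69e-37). Hspa1b, an inducible HSP70 gene, rose from 186, 191 and 197 to 328, 328 and 354 CPM, while its near-identical neighbour Hspa1a was at 8.45, 7.35 and 8.47 and 3.53, 3.62 and 2.12 CPM and was called lower, so the split between these copies is uncertain. Hsph1, a nucleotide exchange partner of HSP70, fell from 150.4, 159 and 152 to 102, 107 and 103 CPM. Genes of the antioxidant response driven by NRF2 rose in 14 of 27 cases and fell in 5. Gsto1, a glutathione transferase, rose from 61.8, 65.9 and 64.5 to 91.4, 98.4 and 95.5 CPM and Gclc, the catalytic subunit that starts glutathione synthesis, from 35.9, 37.5 and 35.7 to 46.4, 47.3 and 49.9 CPM, whereas Hmox1, which breaks down haem, fell from 73.1, 82.0 and 74.2 to 48.6, 50.6 and 46.9 CPM. Fth1, the ferritin heavy chain that stores iron, fell from 3523, 3598 and 3449 to 2911, 2903 and 2957 CPM. Of 16 iron handling genes, 6 fell and 1 rose, or 2 rose without old replicate 1, and Tfrc, the transferrin receptor, had means of 164 and 159.9 CPM with no call.

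Junction genes of epithelia were higher in the libraries from old lungs. Of 25 junction genes tested, 19 rose and 0 fell in the edgeR test, with a median log2 fold change of 0.32. With 1 library left out, 17 to 19 rose and 0 fell. Among the 24 at 2 CPM or more in culture, 19 rose and 0 fell. In the same old libraries the summed 4T1 markers were 4832 to 4922 against 3592 to 3735 CPM, and the summed alveolar and airway markers, which are also epithelial, were 238.5 to 246.5 against 169.4 to 172.9 CPM. The 4T1 marker list shares Cdh1, Cldn3, Cldn4 and Cldn7 with the junction list, so its sum is not independent of the junction counts. The surfactant genes Sftpc and Sftpa1 rose with log2 fold changes of 1.70 and 1.98. The part of these cells in the junction result was not tested. Jup, plakoglobin of desmosomes and adherens junctions, had 135, 138 and 127 CPM in young and 196, 191 and 190.1 CPM in old libraries (log2 fold change 0.53 ± 0.037, adjusted p = 1.15e-23). The claudin Cldn3, a strand protein of tight junctions, rose from 33.7, 33.3 and 35.2 to 55.9, 56.6 and 63.6 CPM, and Cgn, a scaffold of tight junctions, from a mean of 20.6 to 32.9 CPM. Every old library was above every young one for these genes. The tight junction scaffold Tjp1 had means of 213 and 217 CPM, and Gja1, the connexin of most tissues, 762 and 767 CPM, and neither was called.

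Keratins differed in both directions, with 5 of 11 higher and 5 lower. Krt7, Krt8, Krt14, Krt18 and Krt80 rose, and Krt13, Krt15, Krt16, Krt17 and Krt19 fell. Krt14, a basal keratin, rose from a mean of 55.7 to 88.6 CPM, whereas Krt15, a further basal keratin, fell from 8.91, 8.10 and 8.87 to 2.67, 3.83 and 2.52 CPM. Of 7 keratins at 2 CPM or more in culture, 5 rose and 1 fell. The call of Krt16 was lost without old replicate 1, that of Krt17 without young replicate 3 and that of Krt80 without either of these libraries. Of 16 epithelial transcription factors, 9 rose and 2 fell, or 1 fell without young replicate 1 or 3, and among the 12 at 2 CPM or more in culture 8 rose and 0 fell. Esrp1 and Esrp2, splicing factors that keep epithelial isoforms, rose from 46.0, 47.1 and 42.5 to 70.5, 61.2 and 72.2 CPM and from 7.55, 8.84 and 10.1 to 14.9, 12.6 and 14.4 CPM, and Grhl2, a factor that holds claudins and cadherins on, from 43.1, 44.0 and 42.2 to 53.7, 54.2 and 50.1 CPM. Trp63, the basal factor p63, was low throughout and fell, with a log2 fold change of -1.06, a call that was lost without young replicate 1. Genes of the opposite, mesenchymal state did not mirror the epithelial rise, with 6 of 15 higher and 1 lower, and 4 and 1 of the 10 at 2 CPM or more in culture. Zeb2, a repressor of Cdh1 that macrophages also express, fell from 105, 101 and 101 to 80.3, 83.3 and 79.7 CPM, Snai1, a further repressor, rose from 87.5, 89.3 and 88.5 to 103, 108 and 107 CPM, and Twist1 had means of 87.0 and 87.5 CPM with no call.

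Lama3 and Lamb3, chains of the laminin that anchors epithelia through hemidesmosomes, both rose. Lama3 had 67.7, 68.0 and 64.3 CPM in young and 143, 139 and 137 CPM in old libraries (log2 fold change 1.07 ± 0.046, adjusted p = 9.77e-39), and Lamb3 had 62.3, 64.1 and 65.5 and 172, 166 and 155 CPM (log2 fold change 1.36 ± 0.045, adjusted p = 1.99e-47). All 3 old libraries stood above all 3 young ones for both, which was a condition of being named among the largest rises. The chains of laminin-511, the common laminin of basement membranes, changed little in size, with log2 fold changes of 0.14 for Lama5, 0.13 for Lamb1 and 0.10 for Lamc1, all called higher. Of 21 laminins and integrins tested, 13 rose and 3 fell, and of the 17 at 2 CPM or more in culture 11 rose and 2 fell. Among the receptors, Itga2, the collagen-binding integrin chain, rose from 86.4, 81.4 and 83.1 to 136, 142 and 147 CPM, while integrin chains that bind laminin moved apart, with Itga6 at means of 378 and 403 CPM (called higher, though not by limma on FPKM) and Itgb4 at 752 and 695 CPM (called lower). Itga3 had means of 1734 and 1747 CPM with no call. Itga4, an integrin chain of leukocytes that was not listed in culture, fell from 18.9, 16.9 and 22.1 to 1.12, 3.13 and 2.60 CPM.

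**Figure D4:**
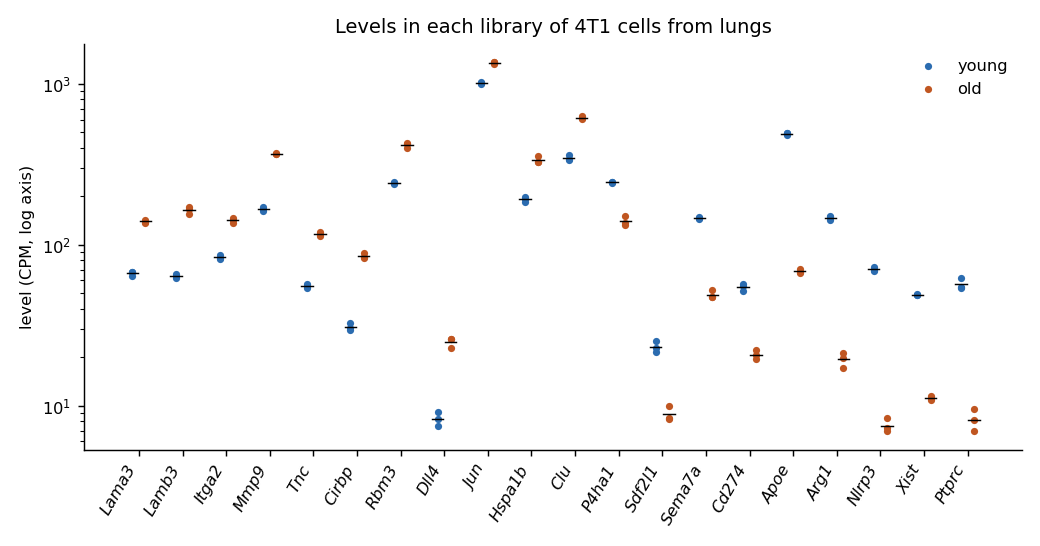
Levels are shown in each young and old lung library for genes described here (CPM, log axis), 1 point per library and a bar at the group mean. The young and old points are separated for every gene shown, from Lama3 to Clu with the old libraries higher and from P4ha1 to Ptprc with the young libraries higher. For some of them, such as Lama3 and Apoe, this separation was a condition of being named.

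Other matrix genes differed in both directions. Of 23 collagens tested, 11 rose and 6 fell, and of the 12 at 2 CPM or more in culture 6 rose and 4 fell. The fibril collagen genes Col1a1, Col1a2 and Col3a1, which fibroblasts express strongly, rose with log2 fold changes of 0.79, 0.84 and 0.60. The basement membrane chains Col4a1 and Col4a2 rose from 451, 453 and 451 to 554, 555 and 569.9 CPM and from 259.8, 243 and 255 to 342, 340.2 and 349 CPM, and Col18a1, the source of endostatin, from 866, 865 and 889.6 to 1108, 1041 and 1072 CPM. The microfibril chain Col6a2 fell from 181, 176 and 175 to 125, 120.5 and 118 CPM and the fibril chain Col5a1 from 287, 284 and 287 to 217, 196 and 204 CPM, whereas Col5a2, its partner, rose from 6.72, 6.33 and 8.01 to 12.8, 17.4 and 16.9 CPM. Col6a2 and Col5a2 were under 1 CPM in culture, and the fibroblast markers were higher in the same old libraries, as given above. Tnc, the matrix glycoprotein tenascin C, had 55.1, 54.0 and 57.3 CPM in young and 121, 116 and 113 CPM in old libraries (log2 fold change 1.07 ± 0.049, adjusted p = 1.93e-36). Of 18 elastic fibre and crosslinking genes, 8 rose and 5 fell, and of the 8 at 2 CPM or more in culture 3 rose and 3 fell. Fbln2, a fibulin of basement membranes, rose from 398, 381 and 399.5 to 617, 615 and 622 CPM, while Emilin2, an elastic fibre protein at 0.0326 CPM in culture, fell from 75.3, 81.3 and 74.7 to 12.3, 11.5 and 14.2 CPM.

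Matrix proteases and their inhibitors were divided, with 10 of 27 higher and 10 lower, and 8 and 8 of the 22 at 2 CPM or more in culture. Mmp9, a gelatinase made by carcinoma cells and neutrophils, had 166, 173 and 161 CPM in young and 364, 372 and 367 CPM in old libraries (log2 fold change 1.14 ± 0.031, adjusted p = 3.87e-55), with 144 CPM in culture. Plau, the urokinase activator of plasminogen, rose from 399, 396 and 405 to 565, 574 and 571 CPM and the stromelysin gene Mmp3 from 119, 120.1 and 124 to 181, 208 and 189 CPM. On the lower side, Mmp12, the macrophage elastase, went from 31.6, 28.5 and 30.8 to 7.84, 8.14 and 6.67 CPM and Adam8, a shedding protease, from 247, 251 and 250.1 to 151, 167 and 154 CPM. Timp1, an inhibitor of these enzymes, had means of 79.2 and 79.6 CPM with no call, and Timp2 rose from 746, 708 and 735 to 913, 909 and 903 CPM.

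Targets of YAP and TAZ, coactivators that respond to cell stretch and stiff matrix, rose in 15 of 20 cases and fell in 2, with a median log2 fold change of 0.24, and of the 19 at 2 CPM or more in culture 14 rose and 2 fell. Ccn1, a matricellular protein, had 625, 629 and 617 CPM in young and 917, 929 and 919 CPM in old libraries (log2 fold change 0.56 ± 0.021, adjusted p = 7.68e-43), and Amotl2, a feedback inhibitor of YAP, had 124, 122 and 128 and 187, 177 and 174 CPM (log2 fold change 0.53 ± 0.038, adjusted p = 1.12e-22). Ankrd1, a nuclear target that is often used as a readout, rose from 52.9, 50.1 and 47.5 to 60.5, 59.8 and 56.2 CPM. YAP and TAZ act through TEAD factors, whose site holds the letters GGAATG. Searched on both strands of the same windows, these letters occurred in 8 of 16 list genes with a window (50%) and in 16.6% of all 27025 genes. As the list was made of known targets, this share describes the list and not the change between old and young. The Ccn1 window is printed because this target is described here and holds the motif, at chr3:145649936-145650235 on the minus strand, 5′ to 3′, with the match in capitals as its reverse complement.
Ccn1: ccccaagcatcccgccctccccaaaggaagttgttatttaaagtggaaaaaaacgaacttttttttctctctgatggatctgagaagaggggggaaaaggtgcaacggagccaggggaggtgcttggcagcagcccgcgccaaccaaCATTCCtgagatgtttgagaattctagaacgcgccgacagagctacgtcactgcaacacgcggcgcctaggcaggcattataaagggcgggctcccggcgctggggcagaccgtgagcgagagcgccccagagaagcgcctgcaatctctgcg

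Actin and other cytoskeletal genes rose in 13 of 24 cases and fell in 2. Flna, a filamin that crosslinks actin, rose from 1602, 1614 and 1597 to 2025, 1983 and 1996 CPM and Actb, beta-actin, from 2335, 2332 and 2283 to 2590.1, 2574 and 2606 CPM, while Pfn1, profilin, fell from 546, 557 and 553 to 480.0, 477 and 498 CPM. Genes of the TGF-beta pathway rose in 10 of 24 cases and fell in 6. The ligands Tgfb1 and Tgfb3 fell, from 102, 98.6 and 98.7 to 87.3, 82.0 and 84.3 CPM and from 123, 129 and 116 to 102, 98.7 and 100.4 CPM, and the inhibitors of differentiation Id1 and Id3, targets of the related BMP pathway, rose from 33.2, 31.8 and 33.0 to 45.9, 46.6 and 45.5 CPM and from 237, 232 and 234 to 347, 338 and 346 CPM. Among S100 proteins, annexins and galectins, 9 of 24 rose and 3 fell. S100a6, calcyclin, had 681, 726 and 723 CPM in young and 1015, 1033 and 1017 CPM in old libraries (log2 fold change 0.53 ± 0.022, adjusted p = 6.37e-40), Anxa8, an annexin of epithelia, had 19.7, 20.3 and 20.1 and 41.6, 40.6 and 41.4 CPM, and Lgals3bp, a secreted glycoprotein that interferons raise, fell from 271, 266 and 267 to 199, 201 and 191 CPM.

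Cirbp and Rbm3, RNA-binding proteins known to be raised by mild cold, both rose. Cirbp had 30.2, 29.5 and 32.6 CPM in young and 83.1, 88.5 and 84.0 CPM in old libraries (log2 fold change 1.47 ± 0.062, adjusted p = 4.53e-39), and Rbm3 had 240.3, 247 and 238 and 426, 431 and 400.1 CPM (log2 fold change 0.79 ± 0.029, adjusted p = 2.62e-44). Other rises among the named genes were those of Rgs16, a brake on G-protein signals, from 38.3, 41.6 and 40.8 to 85.9, 100.2 and 91.1 CPM, Fermt1, the epithelial kindlin that activates integrins, from 35.0, 32.9 and 35.7 to 70.3, 67.9 and 76.3 CPM, and Slc4a11, a membrane transporter, from 40.3, 36.7 and 42.0 to 87.2, 96.0 and 89.4 CPM. The troponin gene Tnnt2 rose from 47.6, 49.0 and 43.8 to 99.0, 96.6 and 98.8 CPM. The neuronal sorting receptor Sorcs2 rose from 34.6, 32.9 and 31.4 to 68.4, 64.2 and 71.1 CPM, and Atg9b, a relative of the autophagy lipid scramblase, from 42.3, 40.1 and 42.3 to 89.3, 88.6 and 81.8 CPM. Each old library exceeded each young one in every case, which for all but Rbm3 was a condition of being named.

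In the Notch pathway, which passes signals between touching cells, 5 of 14 genes rose and 4 fell, and of the 11 at 2 CPM or more in culture 4 rose and 3 fell. The ligand Dll4 had 7.47, 8.23 and 9.13 CPM in young and 22.8, 25.9 and 26.0 CPM in old libraries (log2 fold change 1.59 ± 0.12, adjusted p = 3.04e-22), and the ligand Jag1 rose from 53.2, 56.3 and 58.2 to 78.4, 75.3 and 76.0 CPM. Among receptors, Notch3 rose from 8.83, 8.23 and 7.08 to 15.4, 14.6 and 13.8 CPM, Notch1 fell from 75.4, 75.9 and 75.9 to 55.9, 50.6 and 53.4 CPM, and Notch2 had means of 251 and 252 CPM with no call. The target Hes1 rose from 57.2, 51.6 and 56.9 to 82.4, 88.1 and 90.9 CPM and the feedback gene Nrarp from 8.08, 9.80 and 8.01 to 13.7, 11.5 and 13.3 CPM. Notch3 was at 0.296 CPM in culture and is also known from pericytes, whose marker Pdgfrb rose from 2.26, 2.79 and 2.65 to 4.74, 4.94 and 4.80 CPM.

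Of 21 Wnt pathway genes, 8 rose and 3 fell, and of the 17 at 2 CPM or more in culture 7 rose and 3 fell. The ligand Wnt7a rose from 2.42, 3.61 and 3.38 to 7.67, 10.6 and 11.7 CPM and the receptor Fzd6 from 109.6, 115 and 118 to 175, 183 and 171 CPM, while Sfrp1, a secreted Wnt antagonist, fell from 26.3, 30.7 and 28.7 to 13.9, 14.3 and 14.3 CPM. A further ligand, Wnt7b, was called lower, from 515, 514 and 512 to 486, 481 and 488 CPM. Ephrins, Eph receptors and semaphorins, which guide cell contact and repulsion, had 10 of 31 members higher and 9 lower. Sema7a, a membrane-anchored semaphorin that binds integrins, had 145, 147 and 149 CPM in young and 47.6, 52.2 and 47.1 CPM in old libraries (log2 fold change -1.58 ± 0.049, adjusted p = 2.35e-50), and Ephb6, a receptor without kinase activity, rose from a mean of 16.8 to 33.7 CPM. The receptor Plxnd1, a plexin, fell from 179.9, 186 and 190.5 to 132, 126 and 125 CPM. Few EGF family genes were called, 1 higher and 2 lower of 15. Erbb3 rose from 10.2, 11.4 and 10.9 to 16.9, 16.3 and 17.8 CPM and the ligand Areg fell from 222, 223 and 226 to 188, 184 and 184 CPM, while Egfr had means of 13.1 and 14.8 CPM with no call. In the IGF system, 4 of 13 rose and 3 fell, and with 1 library left out 1 or 2 fell, with 1 without old replicate 3 or young replicate 3. Igfbp7, a secreted binding protein, rose from 103, 95.5 and 102 to 153, 152 and 156 CPM and Igf2r, the receptor that clears IGF2 to lysosomes, fell from 619, 649 and 630.4 to 506, 508 and 519 CPM.

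Of 26 genes of cholesterol and fatty acid synthesis, 20 rose and 2 fell, or 1 fell without old replicate 2 or young replicate 2, with a median log2 fold change of 0.24. Insig1, which holds the sterol sensor in the endoplasmic reticulum, had 99.9, 101 and 100.2 CPM in young and 143, 148 and 139 CPM in old libraries (log2 fold change 0.52 ± 0.042, adjusted p = 6.02e-20), and Idi1, an early enzyme of isoprenoid synthesis, had 24.3, 25.6 and 25.7 and 36.6, 40.6 and 33.9 CPM. Elovl6, a fatty acid elongase, fell from 119, 116 and 117 to 96.8, 93.9 and 91.1 CPM. Glycolytic genes leaned lower, with 10 of 23 down and 3 up, and 9 and 3 of the 20 at 2 CPM or more in culture. Slc16a3, which exports lactate from glycolytic cells, fell from a mean of 20.2 to 5.71 CPM (log2 fold change -1.83 ± 0.14, adjusted p = 3.62e-22) and was at 0.292 CPM in culture. Pfkp, a phosphofructokinase, fell from 161, 164 and 162 to 113, 121 and 108 CPM and Aldoa, an aldolase, from 1024, 1050.4 and 1029 to 904, 895 and 883 CPM, while Pkm, pyruvate kinase, rose from 2442, 2422 and 2413 to 2639, 2664 and 2595 CPM. Respiratory chain and ATP synthase genes rose in 11 of 41 cases and fell in 0 by edgeR, with a highest log2 fold change of 0.44. With 1 library left out, 10 to 13 of them rose and 0 or 1 fell, with 1 without old replicate 3. Of 18 genes of the tricarboxylic acid cycle 8 rose and 1 fell, and of 24 genes of fatty acid oxidation and lipid storage 6 rose and 3 fell.

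Hypoxia response genes moved both ways, with 9 of 24 higher and 8 lower, and 8 and 8 of the 22 at 2 CPM or more in culture. P4ha1, a collagen prolyl hydroxylase, fell from 241, 244 and 247 to 137, 152 and 133 CPM (log2 fold change -0.79 ± 0.036, adjusted p = 3.84e-35), Car9, a carbonic anhydrase that is a common hypoxia marker, from 134, 147 and 139 to 98.2, 108 and 98.3 CPM, and the angiogenic factor Vegfa from 483, 459 and 456 to 363, 379.8 and 379.8 CPM. Ddit4, a stress inhibitor of mTOR that glucocorticoids also raise, rose from 219, 221 and 213 to 350.2, 347 and 357 CPM (log2 fold change 0.69 ± 0.029, adjusted p = 5.60e-39). Slc2a1, the glucose transporter GLUT1, had means of 297 and 307 CPM and was not called.

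Genes of proliferation differed little. In the S phase list 8 of 37 rose and 5 fell, and in the mitosis list 8 of 33 rose and 3 fell, with medians of 0.043 and 0.017 and with rising shares of 21.6% and 24.2% that lie near the 19.6% of all genes. With 1 library left out, 2 to 4 S phase genes fell, 2 of them without old replicate 3, young replicate 1 or young replicate 2, and 3 without old replicate 1 or young replicate 3. The mitosis genes that rose then numbered 5 to 8, with 5 without young replicate 3. Mcm6, a subunit of the replicative helicase, rose from 243, 234 and 237 to 261, 269.5 and 277 CPM, whereas the mitotic kinases Aurka and Plk1 fell from 47.7, 43.7 and 44.5 to 38.9, 38.9 and 36.8 CPM and from 58.6, 55.4 and 58.3 to 50.8, 51.2 and 45.8 CPM. Of 21 p53 targets and cell cycle inhibitors, 5 rose (23.8%) and 4 fell (19.05%), near the 19.6% and 20.4% of all genes. Trp53, the gene of p53, had 74.6, 77.3 and 79.4 and 83.6, 81.4 and 85.6 CPM (adjusted p = 0.0564). Gadd45a, a growth arrest gene, rose from 30.6, 29.9 and 29.0 to 47.8, 47.2 and 50.6 CPM, and Pmaip1, the death effector NOXA, which was not listed in culture, fell from 9.06, 8.50 and 8.08 to 1.47, 1.46 and 1.55 CPM. Of 32 apoptosis genes 10 fell and 3 rose, with Bok, a relative of BAX, rising from 66.5, 70.6 and 69.8 to 100.2, 107 and 104 CPM and Mcl1, a survival protein, falling from 620.2, 628 and 627 to 509, 534 and 551 CPM.

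Translation factors rose in 16 of 30 cases and fell in 5, ribosome biogenesis genes rose in 10 of 28 and fell in 5, and constitutive proteasome subunits rose in 9 of 29 and fell in 1, or in 0 without old replicate 1 or young replicate 3. Over all genes tested, 19.6% were called higher and 20.4% lower. Among all genes at 200 CPM or more in culture the shares were 44.5% and 18.1%. Eef1a1, the main elongation factor, rose from 8822, 8744 and 8546 to 10541, 10592 and 10394 CPM (log2 fold change 0.27 ± 0.013, adjusted p = 4.88e-35), Ncl, nucleolin, from 1025, 1028 and 1006 to 1223, 1211 and 1208 CPM, and Myc, a driver of both processes, from 242, 247 and 256 to 311, 309.6 and 310.1 CPM. Eif4a2, an RNA helicase of initiation, fell from 456, 450.5 and 447 to 331, 335 and 332 CPM. The genes of the integrated stress response rose in 13 of 28 cases and fell in 5. Asns, asparagine synthetase, rose from 72.2, 76.1 and 74.6 to 94.1, 96.5 and 95.2 CPM and Chac1, which degrades glutathione, fell from 30.3, 31.6 and 33.9 to 18.5, 19.2 and 21.3 CPM.

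Of 28 immediate early genes, 12 rose and 6 fell. Jun had 1002, 1018 and 1019 CPM in young and 1357, 1324 and 1356 CPM in old libraries (log2 fold change 0.41 ± 0.019, adjusted p = 1.49e-35), and the nuclear receptor Nr4a2 rose from 427, 427 and 414 to 537, 531 and 543 CPM. Fosb, a partner of Jun, was called lower, at 2102, 2058 and 2062 and 1898, 1825 and 1881 CPM. Genes of NF-kB and its feedback fell in 13 of 22 cases and rose in 2, and in 12 and 2 of the 21 at 2 CPM or more in culture, with Nfkb2, a subunit of the noncanonical branch, falling from 384, 389 and 383 to 315, 302 and 316 CPM and Tnfaip3, the inhibitor A20, rising from 1389, 1376 and 1388 to 1505, 1538 and 1498 CPM. Clock genes rose in 6 of 19 cases and fell in 3, and glucocorticoid receptor targets rose in 7 of 19 and fell in 6. Tef, a clock output factor, rose from 47.9, 52.4 and 49.6 to 74.2, 66.6 and 69.4 CPM, Per2, a clock repressor, fell from 53.5, 58.9 and 56.7 to 45.6, 44.9 and 45.7 CPM, and Zfp36, which destabilises inflammatory messages, rose from 776, 778 and 769.6 to 964, 949 and 957 CPM. The hour of collection was not given in the sources used here.

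Among the 12 most abundant protein-coding genes, 8 rose, 2 fell and 2 were not called, and the mitochondrial gene mt-Co1, among the 8, lost its call without old replicate 1 or 2 and without each young replicate. Rises were also called for 44.5% of all genes at 200 CPM or more in culture. Fn1, fibronectin, rose from 9819, 9769.6 and 9849 to 11081, 11140.0 and 11095 CPM, and Spp1, osteopontin, which macrophages and carcinoma cells both secrete, had 2844, 2835 and 2802 and 2798, 2887 and 2829 CPM (adjusted p = 0.807). Ly6a and Ly6e, small surface proteins that interferons raise, fell from 158, 169 and 154 to 92.0, 88.4 and 88.9 CPM and from 243, 261 and 260.3 to 149.8, 145 and 135 CPM, and both belong to a list of cell surface glycoproteins in which 3 of 16 genes rose and 6 fell.

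Of 880 long non-coding RNAs tested, 64 were higher (7.27%) and 78 lower (8.86%), below the 19.6% and 20.4% of all genes tested. Xist, the RNA that silences an X chromosome in female cells, had 48.8, 49.3 and 48.5 CPM in young and 10.9, 11.2 and 11.5 CPM in old libraries (log2 fold change -2.13 ± 0.09, adjusted p = 3.33e-39) and 0.297 CPM in culture. AW112010, a transcript known from immune cells of the mouse, fell from 24.5, 28.8 and 26.4 to 7.93, 8.97 and 10.0 CPM. Both fell in the libraries in which the macrophage markers fell. On the higher side, Cep83os rose from a mean of 4.51 to 9.29 CPM and 9930014A18Rik from 6.57, 7.35 and 5.03 to 10.6, 11.5 and 9.36 CPM. The protocol describes directional and non-directional libraries without a choice between them, so reads of an antisense RNA such as Cep83os and of its partner gene cannot be told apart.

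The change in lung was set against the change of cultured cells given IFE of old or young mice, to ask whether the changes differed. No library is shared by these comparisons. In an edgeR test of the difference over all 12 libraries, 2501 of 14318 genes (17.5%) were called, 1303 (9.1%) with a more positive and 1198 (8.37%) with a more negative change in lung. This balance turned around when any lung library was left out. By list, the difference was called for 20 of 29 lysosomal genes, 16 of 22 endoplasmic reticulum chaperones, 14 of 25 junction genes, 17 of 32 type I interferon genes and 15 of 28 class I and interferon gamma genes. It was called for 4 of 37 S phase genes, 1 of 33 mitosis genes and 7 of 41 respiratory chain genes. In culture alone, 11 of 13118 genes were called (0.0839%). Cultured old replicate 3 stood apart, with a chi-square per degree of freedom of 9.43 and 8.18 against old replicates 1 and 2. Other cultured pairs lay at 2.97 to 3.43. Without that library the difference was called for 2985 genes. The small count in culture therefore does not show that IFE of old and young mice act alike. Of the 2501 genes with a called difference, 2363 were also called in lung alone.

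Cirbp had a log2 fold change of 1.47 in lung and -0.066 ± 0.093 in culture, a difference of 1.53 (adjusted p = 4.03e-13), and for Rbm3 the values were 0.79 and -0.057 ± 0.047. Tnc had 1.07 in lung and -0.16 ± 0.11 in culture. Tgm2 went from -0.88 in lung to 0.22 ± 0.061 in culture, a difference of -1.10, and Stab1 from -1.26 to 0.26 ± 0.073, a difference of -1.52. Lama3 rose in lung, but its culture change of 0.50 ± 0.45 was too imprecise for the difference of 0.56 to be called (adjusted p = 0.493). Of the 24 genes plotted, Ccn2 was called in both settings, with 1.64 in lung and 0.60 ± 0.085 in culture.

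**Figure D5:**
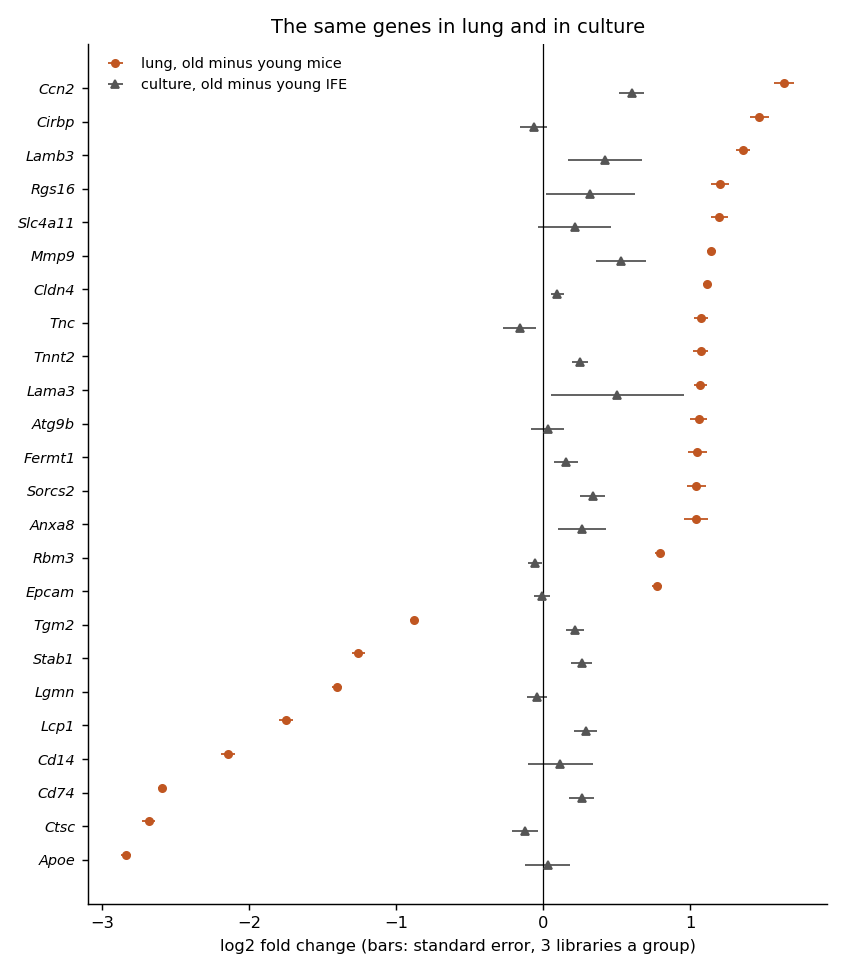
Log2 fold changes with standard errors are shown for 24 genes, those named for the size of their change in lung or for their difference between the settings and expressed at 2 CPM or more in culture (circles, old over young lungs; triangles, old over young IFE in culture). This choice by itself places the lung changes far from 0 and, for genes named by their difference, apart from the culture changes. The culture changes lie between -0.16 for Tnc and 0.60 for Ccn2.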

How the data were processed

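RNA with poly-A tails was sequenced from 3 young and 3 old lung libraries and from 6 cultured libraries. Per the submitters' processing notes, the authors used HISAT2 2.0.5, featureCounts 1.5.0-p3 and DESeq2. These notes name a human build, although the deposited gene identifiers are from mouse, with a mouse build not given in the sources used here. The authors deposited raw counts per gene for 5 of the 6 lung libraries as used here, normalized signal and FPKM. The deposited signal times the size factor gave whole reads for 100% of values within 0.001, and the counts of young replicate 3 were recovered in this way, which the test plan did not foresee. FPKM served only for an alternative.

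The lung table held 24396 genes, and edgeR's default filter kept 14096. Levels are TMM-scaled CPM. Genes were tested with edgeR 4.0.16 (R 4.3.3, quasi-likelihood F-test, robust), with Benjamini-Hochberg adjustment over all genes tested, and a call is an adjusted p under 0.05. The value after ± is the standard error (SE), computed from the fold change and the F statistic. The difference from culture was an interaction contrast on genes in both tables. With 3 libraries a group, the median SE was 0.093 on the log2 scale. Replicate pairs differed by more than sampling noise (chi-square per degree of freedom 2.17 to 2.47 in lung and 2.97 to 9.43 in culture). The common coefficient of variation beyond that noise was 0.0387 in lung and 0.0710 in culture. Each library was counted as 1 sample. This spread cannot show whether the libraries are separate mice, because technical copies can also differ by more than sampling noise. The procedure was tested on simulated counts.

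The gene lists, 49 programs and 10 marker lists, and the naming rule were chosen with earlier results of these data known. The rule takes the 15 largest rises and falls among called protein-coding genes at 20 CPM or more in both groups without overlap, up to 4 called members of lowest p per list, 4 long non-coding RNAs in each direction, the 12 most abundant genes, 6 genes in each direction of the difference from culture and 13 genes named whatever their values. A few genes are not reported here. A further 88 list members were named for their roles after their values were seen. Alternatives changed the scaling, filter, tool, pseudocount and libraries. Promoter letters were also searched for further lists. TGA, any base and TCA occurred in 0 of 22 immediate early genes, 33.3% of matrix protease and inhibitor genes and 8.97% of all genes. Letters chosen for the clock, antioxidant, S phase and mitosis lists were more frequent there than over all genes.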

Additional observations from a re-analysis of the deposited data

Results flagged for a closer look

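The change between old and young lungs differed from the change between old and young IFE in culture, by edgeR's interaction test, for 2501 of 14318 genes. Groups of 3 libraries are too small for a test of single outlying samples. The differences below are the log2 fold change in lung minus that in culture.

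More negative changes in lung were seen for C4b, a complement component whose culture level of 0.0551 CPM leaves its change there poorly measured (-5.55), Il1b (-2.91), Cd74 (-2.86), Apoe (-2.86), Ctsc (-2.57), Cd14 (-2.26), Lcp1 (-2.04), Stab1 (-1.52), Lgmn (-1.36) and Tgm2 (-1.10). Summed macrophage markers, a list that itself includes Cd14, were 1606 to 1656 CPM in young and 230.1 to 244.3 CPM in old lung libraries. In culture these markers summed to 8.42 to 12.7 CPM. Their part in these differences was not tested.

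More positive changes in lung were seen for Cirbp (1.53), Tnc (1.23), Ccn2 (1.03), Cldn4 (1.02), Atg9b (1.02), Slc4a11 (0.98), Lamb3 (0.93), Fermt1 (0.89), Rbm3 (0.84), Tnnt2 (0.81), Epcam (0.78), Anxa8 (0.77), Sorcs2 (0.70) and Mmp9 (0.61). Lung and culture counts come from separate tables, and the test compares the changes within each.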

How the results depend on the processing

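The number of genes called between old and young lungs, 5639, stayed within 1.5 times under all alternatives but one. Against a fold of 1.2 in place of 1 it was 1853, with 597 higher and 1256 lower. Apart from a replicate block, other settings gave 4586 to 5633 genes, and leaving out each library gave 4906 to 5252. The lowest count came from a test of only 11296 genes, those at 2 CPM or more in culture. The difference from culture, 2501 genes, was called for 1946 to 2985 genes with each library left out. With any lung library left out, more of these were negative than positive, such as 1098 against 894 without young replicate 1. Library totals alone gave 1319 against 1141. Same-numbered libraries did not deviate together over all genes tested (correlations of -0.0044 to 0.0036). Sampling noise in these deviations can hide a shared factor, so this check cannot exclude pairing. A replicate block gave 5655 genes in lung and 2401 for the difference. Of 341 named genes tested, 317 were called, and 0 reversed direction in any alternative. Against a fold of 1.2, 106 lost the call, among them Krt8, Fth1 and Hspa5. In other alternatives 11 lost it, namely mt-Co1, Isg20, Egr1, Krt16, Krt17, Krt80, Trp63, Atf6, Itga6, Psmd3 and Batf3, 9 of them with 1 library left out, Batf3 without young replicate 3. Vim gained a call with DESeq2 and limma-voom, and Trp53 without old replicate 2. Depth limits genes of a few CPM, such as lymphocyte markers.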

Other observations

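Genes of the X chromosome were shifted upward in old lung libraries. Among 333 X-linked genes at 2 CPM or more in culture the median log2 fold change was 0.091, and 67.6% were positive. The medians of the 19 autosomes lay between -0.042 and 0.053. The X median was 0.071 to 0.099 over the alternatives in lung, and the same genes had a median of 0.0051 between old and young IFE in culture. Processed pseudogenes were called higher in 64 (11.7%) and lower in 16 (2.93%) of 546 cases, both below the 19.6% and 20.4% of all genes tested. Reads shared with their parent genes make these counts uncertain.

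Fosb, Fos and Egr1, genes of the immediate early response, were higher in the sorted cells of both groups than in culture, whereas Myc of the same list was lower, at 248, 310.1 and 987 CPM. The means in young lung, old lung and culture were 2074, 1868 and 3.16 CPM for Fosb, 1085, 1174 and 1.85 CPM for Fos and 1289, 1244 and 8.49 CPM for Egr1, from tables made separately and with no test. Gapdh, a housekeeping enzyme, was counted at 19.6, 19.5 and 7.61 CPM, and the handling of reads shared with its many copies was not given in the sources used here.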
